A study of Mus musculus with 21 samples.

Results

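Cells of the mouse retina that carry the receptor Notch1 on their surface were compared between postnatal day 14 (P14) and the day of birth (P0), with 3 arrays at each age. These 6 arrays are the samples of the series titled Notch1+ cells at P14 or at P0, of 21 arrays in all. The other 15 hold the same sort at P3 and P7 and a Glast+ sort at P7, P14, P21 and P28. All samples were retina of C57BL/6 mice, and age is the one difference the labels give between the compared groups. Cells were held by a biotin-conjugated antibody against Notch1 and magnetic microbeads, and the study calls them retinal progenitor cells. The sort takes any cell with Notch1 on its surface, and neither its purity nor the number of animals behind a sample is given in the sources used here. The design text calls the replicates independent and biological.

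Retinal progenitors of the newborn mouse still divide, and they give rise to the last cells of the retina, which are rods, bipolar cells and Müller glia, the radial glia of the adult tissue. Notch signalling passes between touching cells: a ligand of the Delta or Jagged family binds the receptor, which is then cut, and its inner part turns on genes such as Hes5 that hold a progenitor undifferentiated. The same receptor also acts in blood vessels, which grow across the mouse retina only after birth, and where Notch1 and Notch4 serve in endothelial cells.

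Expression was read as the log2 normalised intensity of 1 oligonucleotide probe per gene, and 12609 genes were tested. A gene is said to have risen or fallen where limma's moderated test, fitted on all 21 arrays, gave an adjusted p (Benjamini-Hochberg over all 12609 genes) under 0.05. Errors are standard errors (SE) of the log2 difference P14 minus P0, with 3 arrays a group. A level is comparable between arrays for 1 gene, not between genes. Where the scanner software found a gene's spot on no array of the dimmer age, or the spot was saturated on every array of the brighter age, the change is a bound, written as at least so many fold. The software found 55.4% to 64.9% of transcript probes on the P0 arrays and 56.7%, 80.1% and 60.8% on P14 replicates 1, 2 and 3. P0 replicate 3 and P14 replicate 2 were scanned on another day than the other 4 arrays.

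The P0 arrays were close to each other, with Pearson correlations across genes of 0.977 to 0.989. At P14 the correlations were 0.974 between replicates 1 and 2, 0.955 between 1 and 3 and 0.937 between 2 and 3. P14 replicate 3 stood between the ages for genes of the progenitor state. The mean level of 15 progenitor transcription factors, relative to all 12 Notch1+ arrays, was 0.34, 0.31 and 0.39 on the P0 arrays and was -1.57 and -1.78 on P14 replicates 1 and 2, but was 0.05 on replicate 3. The mean of 20 neurogenic factors was 0.73 to 0.85 at P0 and -2.04, -1.88 and -0.57 at P14. Replicate 3 also held the lowest endothelial mean of the P14 arrays, 2.72 against 3.75 and 3.95, and the highest microglial and Müller means, 2.54 and 1.44. Genes of DNA replication did not follow this order, with means of -0.84, -0.41 and -0.84 at P14. For named genes, values without replicate 3 are given where leaving it out ended or made a call or moved a difference by over 1.5-fold.

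**Figure D1:**
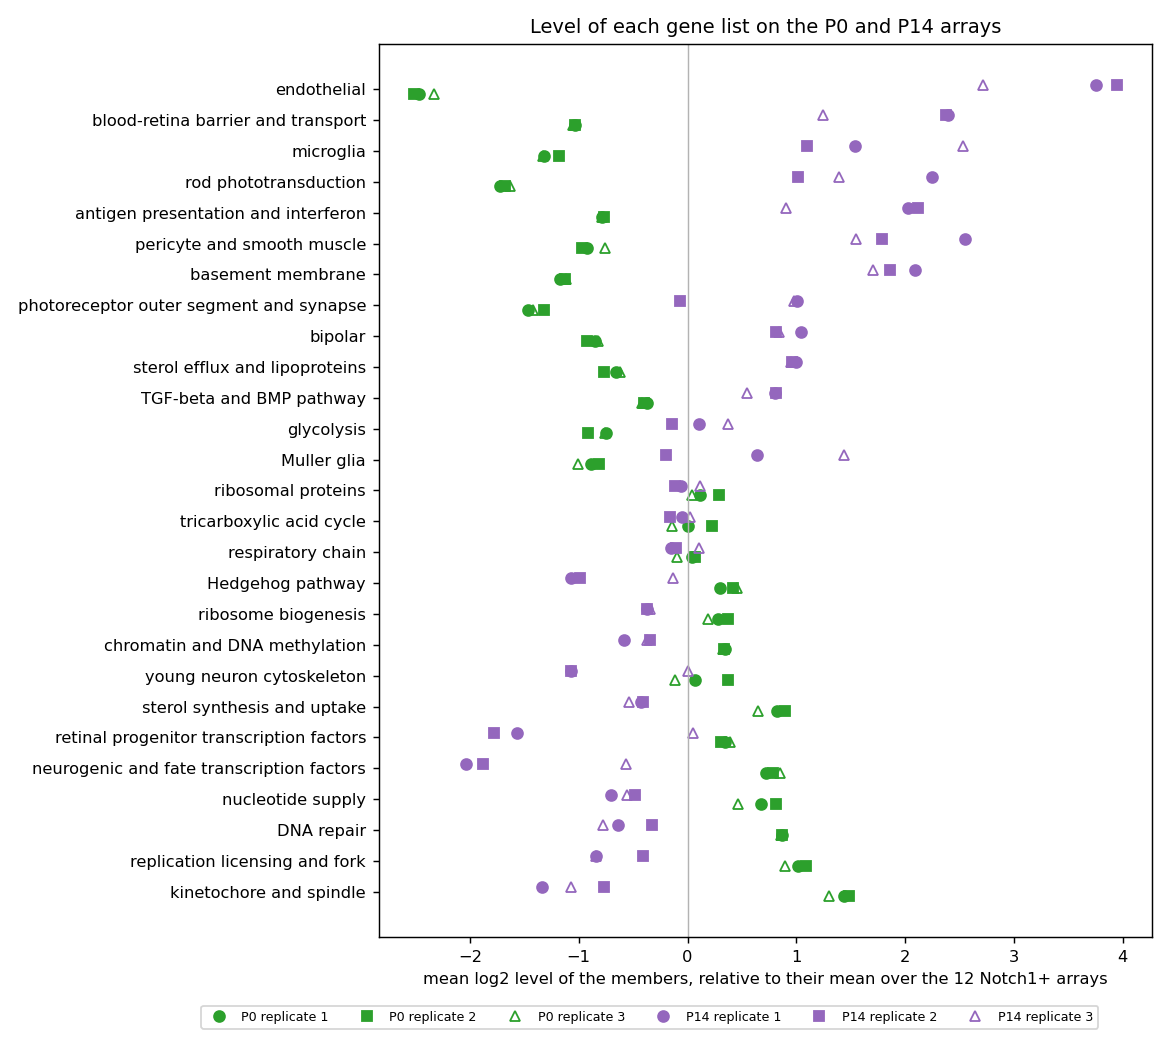
Mean log2 level of 27 gene lists on each P0 array (green) and each P14 array (purple), relative to the members' mean over the 12 Notch1+ arrays; open triangles are replicate 3. The open purple triangle lies near the P0 arrays for progenitor factors (0.05) and apart from the other P14 arrays for endothelial genes (2.72), but among them for replication genes (-0.84).

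Over the 14 days 5581 of 12609 genes (44.3%) differed, 2610 (20.7%) of them higher at P14 and 2971 (23.6%) lower. Under cyclic loess 3323 genes rose and 2350 fell, so that 58.6% of calls were higher in place of 46.8%. The median of all tested genes was -0.04 on the log2 scale. Rises were larger than falls: 881 genes rose by over 4-fold and 256 by over 16-fold, against 428 and 24 that fell that far. The P14 and P0 arrays did not overlap for 50.2% of all genes tested, so that a lack of overlap alone sets no gene apart here. Each gene list below is to be read against the shares of 20.7% higher and 23.6% lower. A probe was kept where some group had it found on each of its arrays. Among the ages of this sort some members, such as Mrc1, Cspg4 and Tgfb1, met this rule at P14 alone. That favours counting them as rises. Others, such as Lhx9 and Gli1, met the rule at P0 alone, which favours counting them as falls. The shares of all genes rest on the same rule.

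The P7 arrays of the same sort split the span. For each gene the change from P7 to P14 was set against the change from P0 to P7 in the same fit, as late minus early, and the 2 differed at an adjusted p under 0.05 for 1359 genes (10.8%). Genes that fell had a median log2 change of -0.50 by P7 and -0.50 after it. Genes that rose had medians of 0.57 by P7 and 0.88 after it. A further group did not differ between P0 and P14 yet bent at P7: of the 1359 genes, 455 had no call over the whole span, and 324 of these were highest and 131 lowest at P7 relative to the line between the ages. These counts lean on P7 replicate 1, without which 404 genes were called, and on P14 replicate 3, without which 2656 were. Late tests of single genes printed below kept their call without each array in turn unless another value is given.

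**Figure D2:**
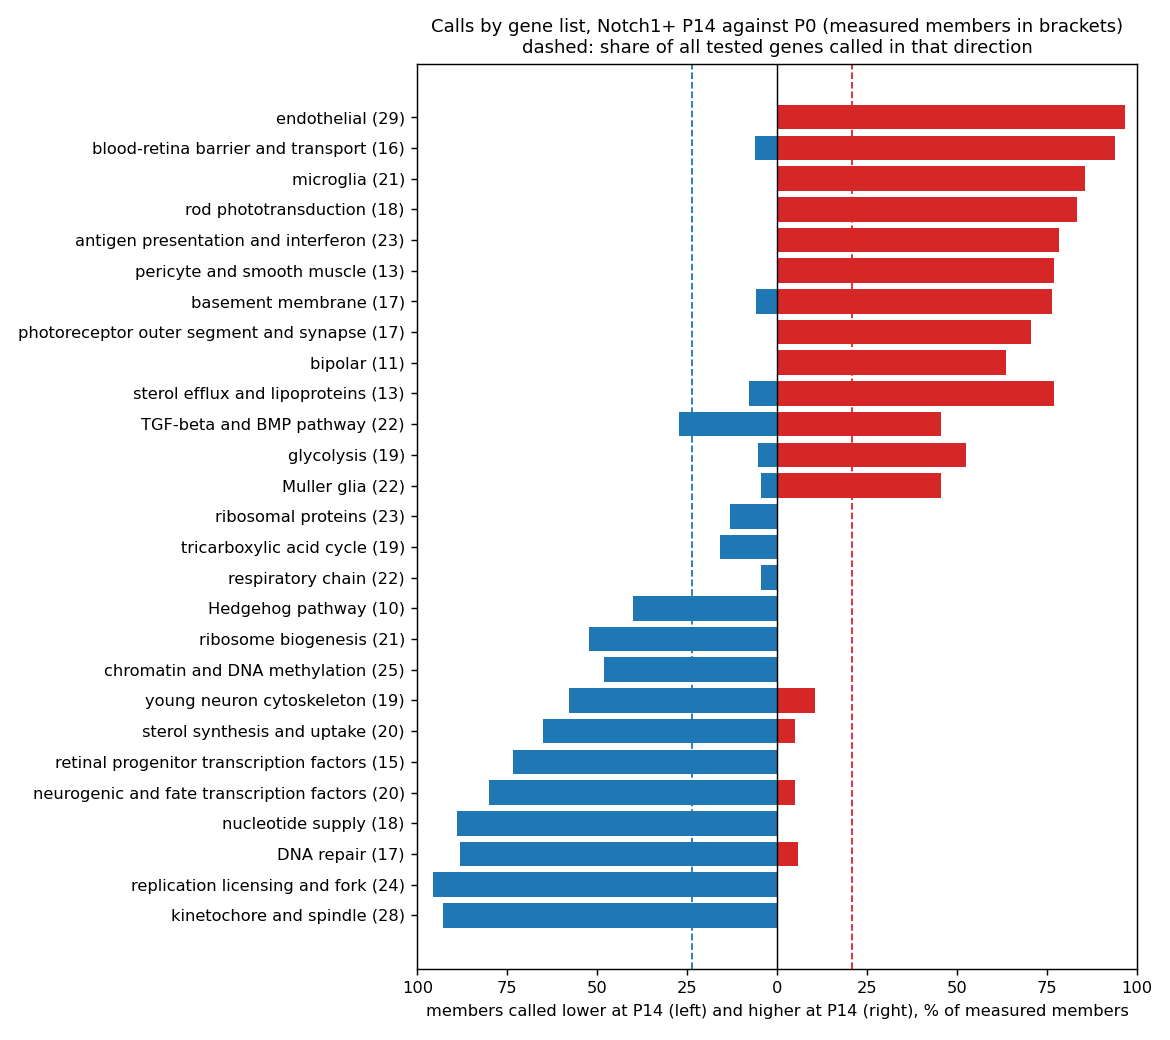
Share of measured members of 27 gene lists called lower (blue, left) or higher (red, right) at P14; dashed lines mark the shares of all tested genes, 23.6% lower and 20.7% higher. Cell-cycle lists reach 92.9% and 95.8% lower, and the endothelial list 96.6% higher.

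The Notch receptors parted. Notch1, the sort's own target, read 15.11, 15.07 and 15.30 at P0 and 14.03, 13.98 and 14.49 at P14. The groups did not overlap, and Notch1 fell by 0.99 (SE 0.19, adjusted p 0.000325), so the sorted cells still carried its message at P14, at a lower level. Its spot was saturated on 1 P0 array, so the size of the fall rests in part on a capped value. Notch4, a receptor known from endothelial cells, stood at 11.25, 11.10 and 11.10 at P0 and at 15.02, 15.02 and 13.89 at P14, a rise of 3.49 (SE 0.36, adjusted p 6.13e-07). Its lowest P14 array was replicate 3. Notch3, the receptor of mural cells around vessels, rose by 1.20 (SE 0.36, adjusted p 0.0104) from 9.22, 8.91 and 8.99 to 10.87, 9.87 and 9.99. Without P14 replicate 1 its difference was 0.89 and no longer called. In bulk RNA such as this, fewer cells of a type and less RNA per cell cannot be told apart.

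Among the 7 measured ligands Dll1, Dll3 and Dner fell, Jag1, Jag2 and Dlk1 rose, and Dll4 had no call. The Delta ligands Dll1 and Dll3, made by newborn neurons and progenitors, fell: Dll1 read 10.99, 10.83 and 11.18 at P0 and 7.07, 6.88 and 9.03 at P14, a change of -3.34 (SE 0.39, adjusted p 2.64e-06), or of -4.03 without P14 replicate 3. Dll3 fell by 4.54 (SE 0.66, adjusted p 2.35e-05), or changed by -3.94 without P14 replicate 1 and -5.68 without replicate 3. Jag1 rose from 7.68, 7.38 and 7.27 to 12.29, 12.45 and 11.05, by 4.49 (SE 0.45, adjusted p 4.62e-07). Jag2 was found on no P0 array and rose at least 3.40-fold (adjusted p 6.03e-05). Among the ages of this sort its probe met the rule for keeping a probe at P14 alone, where it was highest. Dlk1, found on 2 P0 arrays, rose by 1.08 (SE 0.31, adjusted p 0.00907), and Dner changed by -1.82 (SE 0.45, adjusted p 0.00288). Dll4, a ligand known from sprouting vessel tips, had no call over the span, with 11.60, 11.42 and 11.71 at P0 and 11.71, 12.40 and 10.64 at P14 (difference 0.00, adjusted p 0.994). Between them it dipped: it changed by -1.77 to P7 and by 1.77 after, a late minus early difference of 3.54 (SE 0.60, adjusted p 0.0016). Its P0 values come from arrays on which the endothelial gene Cdh5 was not found, and which cells made Dll4 was not tested.

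**Figure D3:**
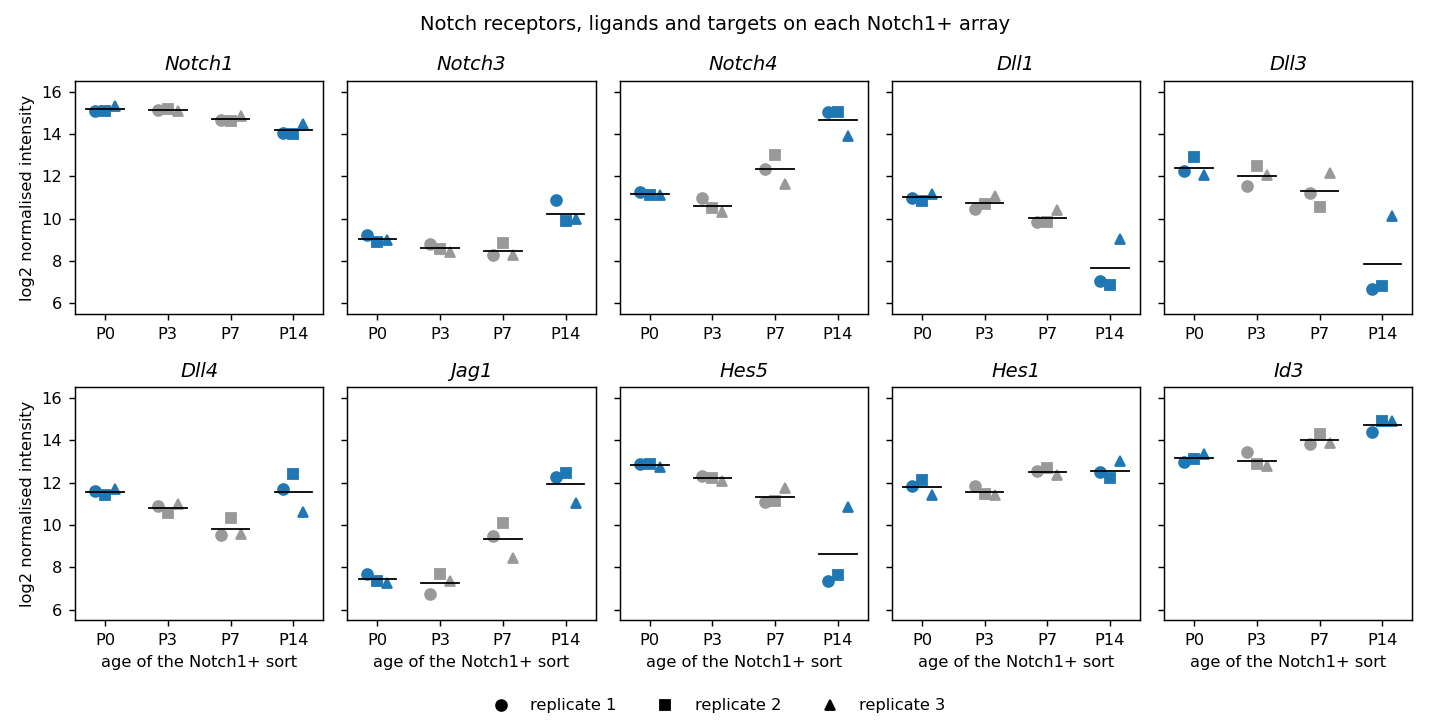
Log2 normalised intensity of 10 Notch pathway genes on each Notch1+ array by age; P0 and P14 in blue, P3 and P7 in grey, black lines are means and symbols mark replicates 1 to 3. Jag1 and Notch4 climb to P14, Dll1, Dll3 and Hes5 drop with replicate 3 (triangle) the highest P14 array, and Dll4 dips at P7.

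In a list of 11 genes taken as Notch targets 2 rose and 4 fell, close to the shares of all genes. The list also holds Id1 to Id4 and Hes6, and Id3, Id4 and Hes6 are among its calls. Whether Notch set any of these levels was not tested. Hes5, the repressor that keeps progenitors undifferentiated, fell most: it read 12.90, 12.90 and 12.73 at P0 and 7.35, 7.63 and 10.86 at P14. Replicate 3 lay well above the other P14 arrays, yet below every P0 array, and the change was -4.23 (SE 0.60, adjusted p 1.97e-05), -5.35 without replicate 3 and -3.59 without replicate 1. Hes1, a related repressor also active in vessels and glia, did not share the fall. It read 11.87, 12.14 and 11.41 at P0 and 12.51, 12.21 and 13.01 at P14, a difference of 0.77 (adjusted p 0.0123) that lost its call without P0 replicate 3 (0.57) or P14 replicate 3 (0.55), under median scaling (0.48) and with the authors' deposited values (0.53). Id3, an inhibitor of differentiation factors, rose by 1.57 (SE 0.20, adjusted p 7.39e-06), from 13.00, 13.13 and 13.33 to 14.38, 14.89 and 14.91, while Id4 fell by 2.27 (SE 0.44, adjusted p 0.00041), which was -1.66 without P14 replicate 2 and -2.91 without replicate 3. Because Hes5 is the target whose loss leads this group, the 170 bases before its start in RefSeq's GRCm38.p6 table are shown (chr4:154960753-154960922, plus strand), with capitals for TGGGAA, letters that the Notch partner RBPJ is known to bind. The match lies 82 bases before the start; 3 of 7 Notch targets (42.9%) and 27.4% of all 10034 tested genes with a promoter in that table hold these letters on either strand between 250 bases before and 50 after the start.
Hes5: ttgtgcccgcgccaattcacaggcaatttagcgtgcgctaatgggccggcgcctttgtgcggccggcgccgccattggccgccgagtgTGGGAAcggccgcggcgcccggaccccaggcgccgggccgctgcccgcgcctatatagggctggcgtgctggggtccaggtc

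The machinery that cuts and tags the receptor was mixed, with 4 of 19 members higher and 7 lower. The sheddase Adam17 rose by 1.45 (SE 0.30, adjusted p 0.000816) and the Notch inhibitor Numb by 1.05 (SE 0.22, adjusted p 0.000857). Mib1, the ligase that activates ligands, fell by 0.86 (SE 0.19, adjusted p 0.00147). Fbxw7, which marks the active receptor for decay, read 12.49 to 12.70 at P0 and 9.97, 10.04 and 11.63 at P14, a change of -2.08 (SE 0.34, adjusted p 8.47e-05), or of -1.45 as the mean of its probes. Settings moved these counts to 2 higher under median scaling, and to 3 lower under cyclic loess, with the compared groups alone or without P14 replicate 1, and to 4 lower without P0 replicate 3.

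Of 15 transcription factors of retinal progenitors 11 fell and none rose, with a median of -1.42 (-2.31 without P14 replicate 3) against -0.04 over all genes. Meis1, a homeobox factor of progenitors, read 13.69, 13.65 and 13.84 at P0 and 10.34, 9.58 and 13.08 at P14. Lhx2, which keeps the eye field and later the glia, read 11.02, 11.03 and 11.21 and then 8.16, 8.32 and 10.18. In both, P14 replicate 3 was the highest P14 array and still lay below P0. Meis1 changed by -2.73 (SE 0.55, adjusted p 0.000559), or -3.77 without replicate 3 and -2.01 without replicate 2, and Lhx2 by -2.20 (SE 0.37, adjusted p 0.000119), or -2.85 without replicate 3. Sox9, held by progenitors and Müller glia, had a difference of -0.60 (adjusted p 0.151), and of -1.14 with a call without replicate 3.

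Most of the change in these factors lay after P7: the list's median change was -0.22 to P7 and -1.40 after. Meis2 even stood higher at P7. It changed by 2.23 to P7 and by -2.97 after, a late minus early difference of -5.20 (SE 0.77, adjusted p 0.000619), with 10.38, 10.71 and 10.72 at P0 and 8.88, 9.38 and 11.33 at P14 and no call over the whole span (-0.74, adjusted p 0.197; -1.47 and called without P14 replicate 3). Zic2 and Tcf3, for which replicate 3 did not stand apart, changed by -1.31 (SE 0.19, adjusted p 2.94e-05) and -0.90 (SE 0.15, adjusted p 0.000132).

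Neurogenic and fate-setting factors fell in 16 of 20 cases, with a median of -2.33, and 1 rose. They split by time. Atoh7, the factor for ganglion cells, read 12.90, 12.59 and 12.45 at P0 and was found on no P14 array, a fall of at least 75.2-fold (adjusted p 2.23e-11). Ptf1a, the factor for amacrine and horizontal cells, went from 12.57, 12.01 and 12.49 to 6.35, 6.61 and 6.64, a change of -5.83 (SE 0.22, adjusted p 2.23e-11), and was found on 1 P14 array. Foxn4, upstream of Ptf1a, fell by 5.20 (SE 0.28, adjusted p 4.25e-10). No array of 1 age overlapped the other in these 3 genes, and P14 replicate 3 stayed close to its fellows. Most of the fall came by P7: late minus early was 4.66 (SE 0.42, adjusted p 1.19e-05) for Atoh7, 2.76 (SE 0.38, adjusted p 0.00038) for Ptf1a and 3.12 (SE 0.48, adjusted p 0.000778) for Foxn4. In all, 6 members fell mainly early and 7 bent the other way (5 and 2 without P7 replicate 1, 6 and 3 without P7 replicate 3, 4 and 1 with the compared groups alone).

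Of the second kind, with the change after P7 below that before it, were Otx2 and Isl1. Otx2, the switch to photoreceptor and bipolar fate, which was named after its values were seen, read 13.61, 13.68 and 13.63 at P0 and 10.49, 9.92 and 13.21 at P14. It changed by 1.09 to P7 and by -3.52 after, with a late minus early difference of -4.61 (SE 0.96, adjusted p 0.00588). Its P14 replicate 3 was again nearest to P0; the whole change was -2.43 (SE 0.55, adjusted p 0.00158), -3.43 without replicate 3 and -1.79 without replicate 2 or within the scan day that holds 4 of the 6 arrays. The late test of Otx2 lost its call with the compared groups alone and within that scan day. Isl1, a factor of bipolar, amacrine and ganglion cells, was the member that rose (found on 2 P0 arrays), from 7.72, 8.51 and 6.71 to 10.94, 11.35 and 12.18, by 3.85 (SE 0.57, adjusted p 3.04e-05). It had risen by 4.66 at P7. Between these kinds lay Olig2, of dividing neurogenic progenitors, which fell by 4.38 (SE 0.34, adjusted p 2.11e-08), with -2.36 to P7 and -2.02 after; its probes' mean changed by -2.27.

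**Figure D4:**
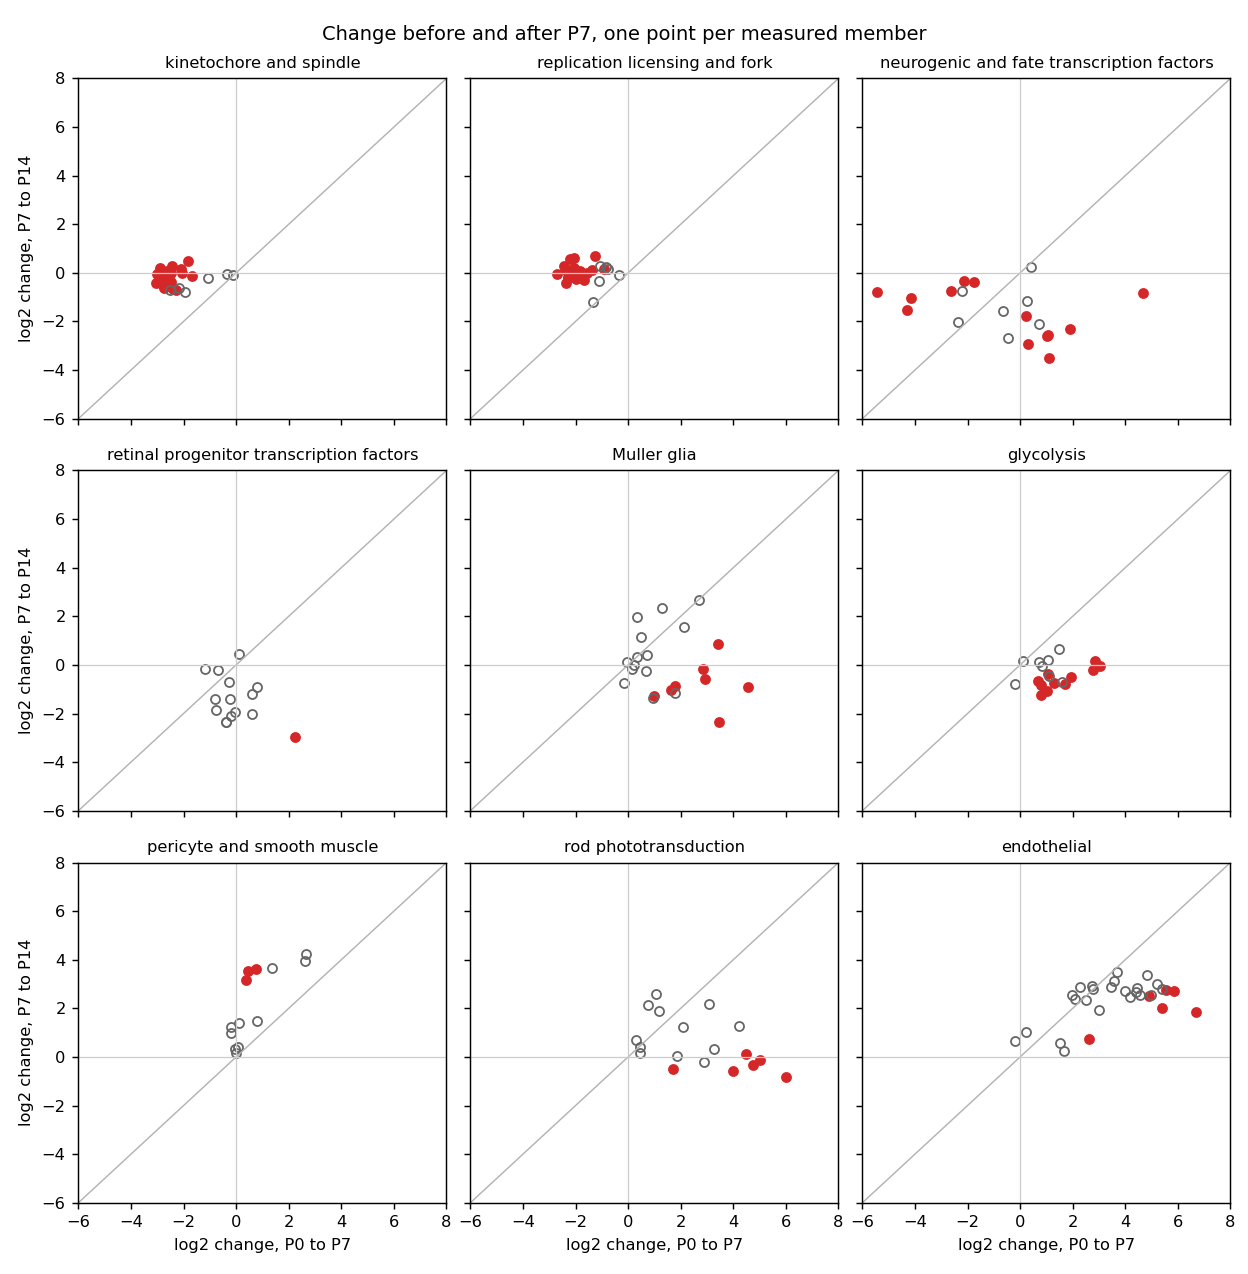
Log2 change from P0 to P7 (horizontal) and from P7 to P14 (vertical) for every measured member of 9 lists; filled red points have a late minus early difference at an adjusted p under 0.05 and the grey diagonal marks equal change before and after P7. Kinetochore and replication genes lie left on the horizontal line, progenitor factors lie mainly below it, and endothelial genes lie in the upper right.

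Genes of the dividing cell fell in nearly every case. Among 24 genes that license and copy DNA 23 fell, with a median of -1.80, and among 28 kinetochore and spindle genes 26 fell, with a median of -2.72. None of either list rose. Ndc80, which ties microtubules to the kinetochore, read 10.59, 10.92 and 10.54 at P0 and 7.63, 7.99 and 7.58 at P14, a change of -2.95 (SE 0.18, adjusted p 1.68e-09). Ttk, a kinase of the spindle checkpoint, read 10.82, 10.99 and 10.73 and then 8.18, 8.45 and 8.36, a change of -2.52 (SE 0.16, adjusted p 2.62e-09). The ages lay far apart in both, with no array of P14 near those of P0. Pole, the polymerase of the leading strand, fell by 2.73 (SE 0.24, adjusted p 8.81e-08), Prim1, which lays its primers, by 2.44 (SE 0.22, adjusted p 1.05e-07), and the licensing factor Cdt1 by 2.77 (SE 0.31, adjusted p 1.77e-06). The members without a call were the helicase subunit Mcm6 at -0.54 (adjusted p 0.239; -0.94 and called as the mean of its probes) and, near the lower end of the scale at both ages, Nuf2 at -0.39 (adjusted p 0.0929; -0.59 and called without P0 replicate 3) and Kif20a at -0.19 (adjusted p 0.392).

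Most of this change lay before P7. The kinetochore list's median changed by -2.50 to P7 and by -0.11 after, and the replication list's by -1.92 and then 0.05. Late minus early was called, always positive, for 22 of 28 and 18 of 24 genes, and for 12 and 7 without P7 replicate 1, against 10.8% of all genes in either direction. It was 2.70 (SE 0.28, adjusted p 5.68e-05) for Ttk, 2.61 (SE 0.31, adjusted p 0.000121) for Ndc80 and 2.68 (SE 0.41, adjusted p 0.000778) for Pole. Mcm7, a subunit of the replicative helicase, was an exception: it went from 13.23, 13.12 and 13.18 to 10.30, 10.78 and 10.85, a change of -2.53 (SE 0.20, adjusted p 2.28e-08), of which -1.32 came by P7 and -1.21 after (late minus early 0.10, adjusted p 0.903).

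Genes that supply and mend DNA fell too. Of 18 genes for nucleotide supply 16 fell, among them Shmt1, which loads folate, by 2.37 (SE 0.21, adjusted p 1.05e-07). Of 17 DNA repair genes 15 fell and 1 rose, with a median of -1.69, among them the helicase Blm by 2.59 (SE 0.17, adjusted p 5.39e-09) and the crosslink repair factor Fanci by 2.04 (SE 0.14, adjusted p 7.61e-09). Promoter letters were counted for the replication and kinetochore genes, which differed in them. The letters TTTCCCGC, TTTGGCGC or TTTCGCGC, which E2F factors are known to bind, were found on either strand in 55.0% of the 20 replication genes with a promoter in the table and 0% of the 23 kinetochore genes, against 3.58% of all genes. The letters TTTGAA, which resemble the cell-cycle homology region of mitotic genes, were found in 65.2% of the kinetochore genes and 20.0% of the replication genes, against 15.2% of all. CCAAT, bound by NF-Y, was in 69.6% and 70.0%, against 43.0% of all. A match is a description of letters and shows no binding. Shown are the 170 bases before the start of Mcm7 (chr5:138171884-138172053, minus strand), Cdc6 (chr11:98907981-98908150, plus strand) and Cdc20 (chr4:118437344-118437513, minus strand), in RefSeq's GRCm38.p6. Cdc6, a loader of the helicase, and Cdc20, which starts the exit from mitosis, were picked after their values were seen because such letters lie before their starts; they changed by -2.25 (SE 0.33) and -3.06 (SE 0.26, or -1.60 as the mean of its probes). Capitals mark the E2F letters, read from the other strand as GCGGGAAA, in Mcm7 and Cdc6, and TTTGAA and CCAAT in Cdc20.
Mcm7: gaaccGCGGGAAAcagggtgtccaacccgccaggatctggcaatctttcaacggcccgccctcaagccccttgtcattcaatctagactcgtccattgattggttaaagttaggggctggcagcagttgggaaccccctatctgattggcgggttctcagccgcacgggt
Cdc6: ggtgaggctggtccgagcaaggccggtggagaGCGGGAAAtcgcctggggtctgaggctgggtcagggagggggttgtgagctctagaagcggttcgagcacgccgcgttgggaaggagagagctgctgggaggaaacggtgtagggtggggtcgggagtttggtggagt
Cdc20: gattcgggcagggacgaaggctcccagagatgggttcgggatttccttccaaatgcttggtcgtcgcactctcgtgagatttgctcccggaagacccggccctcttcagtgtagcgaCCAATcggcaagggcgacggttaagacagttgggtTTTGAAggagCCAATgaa

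Cyclins of different phases moved in different directions. Of 25 cyclins, CDKs and their transcription factors 17 fell and 3 rose. The mitotic cyclin Ccnb1 fell by 3.80 (SE 0.27, adjusted p 8.15e-09) and its activator Foxm1 changed by -2.90 (SE 0.33, adjusted p 1.65e-06). E2f2, a driver of S phase, fell by 2.03 (SE 0.24, adjusted p 2.83e-06), all of it by P7 (late minus early 2.68, SE 0.42, adjusted p 0.000834). Among D cyclins, which start the cycle, Ccnd2 read 7.38, 7.72 and 7.67 at P0 and 12.37, 12.27 and 10.58 at P14, a rise of 4.15 (SE 0.43, adjusted p 7.37e-07), or 4.73 without P14 replicate 3. Ccnd3 read 10.27, 10.22 and 10.33 and then 12.18, 12.20 and 11.44, a rise of 1.66 (SE 0.22, adjusted p 1.12e-05) or, as the mean of its probes, of 0.88. Ccnd1, the D cyclin of retinal progenitors, was saturated on every P0 array, so that its values bound the change: it was at least 1.62-fold lower at P14 (adjusted p 0.032), with 15.68, 15.12 and 15.85 at P0 and 14.59, 14.77 and 15.20 at P14, which overlap. That call was lost without P0 replicate 1 or 3 (-0.63 and -0.55) or P14 replicate 1 or 2 (-0.57 and -0.66), under cyclic loess (-0.29), with the authors' values (-0.65) and within the scan day of 4 arrays (-0.51). As the mean of its probes the difference was -1.88, with a call.

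CDK inhibitors, the brakes of the cycle, showed 2 rises and 2 falls among 7. Cdkn2b rose from 7.34, 7.59 and 7.97 to 11.45, 11.57 and 10.09, by 3.41 (SE 0.31, adjusted p 1.35e-07), and Cdkn1a from 10.82, 10.75 and 11.11 to 13.75, 13.83 and 12.20, by 2.37 (SE 0.53, adjusted p 0.00146). In both the lowest P14 array was replicate 3. Cdkn2c, a brake seen in dividing progenitors, fell by 1.65 (SE 0.25, adjusted p 3.41e-05). Cdkn1c, which takes progenitors out of the cycle, had a difference of 0.64 (adjusted p 0.102), and of 0.97 with a call without P14 replicate 1.

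Rod genes rose in 15 of 18 cases, with a median of 3.36, and none fell. Pde6b, a subunit of the phosphodiesterase of the light response, read 7.84, 8.15 and 8.19 at P0 and 13.61, 12.31 and 13.79 at P14, a rise of 5.18 (SE 0.53, adjusted p 5.29e-07). Sag, the rod arrestin, rose from between 9.43 and 10.12 to 15.31, 13.87 and 15.10, by 4.91 (SE 0.58, adjusted p 2.82e-06). The P14 arrays of both genes lay far above P0, and replicate 2 was the lowest of them. Genes of the outer segment, the stack of membranes that catches light, rose in 12 of 17 cases (median 2.01). Prph2, which shapes the rims of its discs, rose by 4.64 (SE 0.51, adjusted p 1.26e-06), and its partner Rom1 by 2.62 (SE 0.36, adjusted p 1.58e-05). The letters TAATCC, bound by the photoreceptor factors CRX and OTX2, were found in 50% of the 12 rod genes and 33.3% of the 12 outer segment genes with a promoter in the table, against 7.37% of all. They are in capitals, as GGATTA where read from the other strand, in the 170 bases before the starts of Sag (chr1:87803510-87803679, plus strand) and of the channel subunit Cngb1 (chr8:95306586-95306755, minus strand), which rose by 4.44 (SE 0.62, adjusted p 1.66e-05).
Sag: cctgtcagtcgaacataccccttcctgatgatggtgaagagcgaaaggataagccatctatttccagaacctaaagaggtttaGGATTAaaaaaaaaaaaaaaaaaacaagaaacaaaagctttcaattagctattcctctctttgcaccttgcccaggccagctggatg
Cngb1: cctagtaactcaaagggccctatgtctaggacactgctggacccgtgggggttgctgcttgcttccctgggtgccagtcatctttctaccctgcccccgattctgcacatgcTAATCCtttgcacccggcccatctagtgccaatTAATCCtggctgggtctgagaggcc

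Much of the change lay before P7. The rod list's median change was 2.48 to P7 and 0.26 after, and the outer segment list's 2.47 and then -0.44. Late minus early was called, always negative, for 6 rod and 9 outer segment genes, and for 2 and 2 without P7 replicate 1. It was -6.83 (SE 0.91, adjusted p 0.000292) for Pde6b, which had risen by 6.00 at P7, and -5.53 (SE 0.88, adjusted p 0.00101) for Prph2. The rod master factor Nrl read 10.97, 10.82 and 10.48 at P0 and 13.87, 12.15 and 14.59 at P14; it rose by 4.1 to P7 and changed by -1.32 after (late minus early -5.42, SE 0.98, adjusted p 0.00242), which left a rise of 2.78 (SE 0.57, adjusted p 0.000632) over the span, or 3.47 without P14 replicate 2. Crx, the factor shared by rods and cones, had no call over the span (0.35, adjusted p 0.703; -0.33 without P14 replicate 3), with 2.31 to P7 and -1.96 after. Rorb, which acts upstream of Nrl, fell by 3.11 (SE 0.57, adjusted p 0.000233), or -4.11 without P14 replicate 3 and -2.40 without replicate 2.

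Other retinal neurons gave smaller sets. Of 11 bipolar genes 7 rose: Pcp2, of rod bipolar cells, read 7.70, 7.50 and 8.51 at P0 and 11.72, 11.70 and 11.89 at P14, a rise of 3.86 (SE 0.35, adjusted p 1.27e-07), and Grm6, the glutamate receptor of ON bipolar cells, rose at least 24.4-fold (adjusted p 0.000556). Of 11 cone genes 3 rose, with 5 under cyclic loess, 7 with the compared groups alone and 6 without P14 replicate 3; Pde6h, a cone phosphodiesterase subunit, rose by 3.38 (SE 0.69, adjusted p 0.000616). Of 10 amacrine and horizontal genes 5 fell (3 without P0 replicate 2) and 1 rose. The rise was that of Gad1, which makes GABA, by 1.89 (SE 0.67, adjusted p 0.0286). It was found on 2 P0 arrays, and its call was lost without P0 replicate 1 or 3 (1.64 and 1.64) or P14 replicate 1 or 3 (1.97 and 1.62), under median scaling (1.93), as the mean of its probes (0.88) and within the scan day of 4 arrays (1.82). Sstr2, a somatostatin receptor, read 14.80, 14.77 and 14.93 at P0 and 6.95, 6.98 and 8.71 at P14, a change of -7.28 (SE 0.44, adjusted p 1.68e-09), or -7.87 without P14 replicate 3. Lhx9, of a subset of amacrine cells, fell by 1.48 (SE 0.16, adjusted p 7.47e-07). Among the ages of this sort its probe met the rule for keeping a probe at P0 alone, where it was highest. Of 11 ganglion cell genes 4 rose and 1 fell. The ganglion cell factors Pou4f1 and Pou4f2 were found on none of the 6 arrays. Rbpms, which marks ganglion cells in the retina and is also made in mural cells elsewhere, rose by 2.33 (SE 0.39, adjusted p 0.000119).

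Müller glia genes rose in 10 of 22 cases and fell in 1, with a median of 1.01 that was 0.26 without P14 replicate 3. Clu, a secreted chaperone, read 8.32, 7.58 and 7.52 at P0 and 13.68, 12.53 and 13.23 at P14, a rise of 5.35 (SE 0.33, adjusted p 2.01e-09). Apoe, the glial carrier of lipids, read 12.37, 12.59 and 12.39 and then 14.95, 14.62 and 15.77, a rise of 2.67 (SE 0.20, adjusted p 1.95e-08), all of it by P7 (late minus early -3.02, SE 0.35, adjusted p 0.000114). Its spot was saturated on 2 P7 arrays and 1 P14 array, so its size and timing rest in part on capped values. Rlbp1, the retinaldehyde carrier of Müller glia, changed by 4.57 to P7 and by -0.91 after, a late minus early difference of -5.48 (SE 0.83, adjusted p 0.000702), and its P14 arrays were 13.52, 11.66 and 14.47. Its rise over the span was 3.66 (SE 0.48), 4.44 without P14 replicate 2, 3.03 without replicate 3 and 4.37 within the scan day of 4 arrays. Glul, which makes glutamine, rose by 1.64 (SE 0.37, adjusted p 0.00141) and the filament gene Vim by 1.11 (SE 0.17, adjusted p 3.60e-05). Slc1a3, the target of the study's other sort, had a difference of 0.60 (adjusted p 0.266), of 1.14 with a call without P14 replicate 2 and of -0.04 without replicate 3.

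The astrocyte list held 3 rises and 1 fall among 8 genes. Gja1, a gap junction protein of astrocytes that other cells make too, rose by 4.94 (SE 0.37, adjusted p 1.85e-08), from 9.53, 9.26 and 9.31 to 14.49, 14.74 and 13.67. Gfap, their filament, was found on 1 P0 array and no P14 array. Fabp7, a lipid carrier of progenitors and young glia, fell by 3.08 (SE 0.86, adjusted p 0.00701) with 12.23, 13.00 and 12.30 at P0 and 8.14, 7.51 and 12.64 at P14. Replicate 3 overlapped P0, and without it the change was -4.69, while it was -2.44 without P14 replicate 1 and -2.13 without replicate 2. Its call was lost with the compared groups alone and within the scan day of 4 arrays (-2.23).

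Vessel genes rose more than any other list measured here. Of 29 endothelial genes 28 rose, with a median of 6.68 (5.65 as the mean of probes, 7.3 under cyclic loess). Cdh5, the cadherin of endothelial junctions, was found on no P0 array and read 13.50, 13.98 and 12.72 at P14, a rise of at least 103-fold (adjusted p 4.08e-10). Aplnr, the apelin receptor of growing vessels, was found on 1 P0 array and rose from 6.56, 7.03 and 6.90 to 15.78, 15.86 and 14.50, by 8.56 (SE 0.46, adjusted p 4.25e-10). Flt1, a receptor for VEGF found on all arrays, rose by 7.43 (SE 0.38, adjusted p 3.38e-10), 4.77 as the mean of its probes and 8.04 under cyclic loess. Aplnr was saturated on 2 P14 arrays and Flt1 on 1. In all 3 genes every P14 array lay far above every P0 array, and replicate 3 was the lowest of its age. Flt4, the receptor of lymphatic vessels and of tip cells, was the member without a call (0.46, adjusted p 0.0671; 0.70 and called without P14 replicate 3). The defining endothelial genes were thus found on few P0 arrays or at low levels there, and were bright at P14. Their part in the other rises reported here, such as those of Notch4 and Jag1, was not tested.

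The endothelial rise was spread over the span, with a list median of 3.68 to P7 and 2.55 after. Late minus early was called for 6 of 29 genes, always negative, for 2 without P7 replicate 1 or 2 and for 17 without P7 replicate 3. Aplnr had risen by 6.70 at P7 (late minus early -4.84, SE 0.79, adjusted p 0.00115).

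Genes of the blood-retina barrier rose in 15 of 16 cases and fell in 1, with a median of 3.3. Slco1c1, a thyroid hormone carrier of brain vessels, was found on 1 P0 array and rose by 7.3 (SE 0.55, adjusted p 1.65e-08; 7.93 under cyclic loess). Abcg2, a drug efflux pump, read 9.76, 10.23 and 10.31 at P0 and 13.89, 13.90 and 13.43 at P14, a rise of 3.64 (SE 0.18, adjusted p 2.84e-10). Slc7a5, the carrier of large amino acids, rose by 3.19 (SE 0.37, adjusted p 2.01e-06), and the tight junction gene Ocln at least 12.8-fold (adjusted p 1.87e-07). Basement membrane genes rose in 13 of 17 cases and fell in 1, with a median of 3.43. Nid1, which links laminin to collagen, read 7.69, 7.56 and 7.97 at P0 and 14.38, 14.71 and 13.59 at P14, a rise of 6.49 (SE 0.46, adjusted p 9.98e-09). The laminin chain Lamc1 rose by 3.43 (SE 0.32, adjusted p 1.68e-07) and Sparc, a binder of collagen, by 5.36 (SE 0.33, adjusted p 2.14e-09). Col4a1 was saturated on all P14 arrays and rose at least 24.0-fold (adjusted p 1.46e-08).

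Of 13 pericyte and smooth muscle genes 10 rose, with a median of 2.28, and their list changed by 0.37 to P7 and by 1.48 after. Pdgfrb, the receptor that recruits pericytes, read 9.52, 9.16 and 9.68 at P0 and 14.11, 12.44 and 12.42 at P14, a rise of 3.53 (SE 0.44, adjusted p 4.64e-06). It had changed by 0.37 at P7 and the late minus early difference was 2.80 (SE 0.76, adjusted p 0.0256). Rgs5, of pericytes, was found on no P0 array and rose at least 33.2-fold (adjusted p 5.81e-08). P14 replicate 1 was highest in both genes. Late minus early was called for 3 members, positive each time, for none without P7 replicate 1 or 3, for 1 without P7 replicate 2, P0 replicate 1 or P0 replicate 3, and for 6 without P14 replicate 3; for Pdgfrb it was lost without P7 replicate 1 or 3 or P0 replicate 3. The contractile genes of arteries Acta2 and Tagln had differences of 0.49 (adjusted p 0.0514; 0.60 and called without P0 replicate 1, 0.57 and called without P14 replicate 3) and 0.29 (adjusted p 0.314).

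Of 19 angiogenic factors and their receptors 10 rose, 1 fell and 8 had no call. Apln, the ligand of Aplnr, rose at least 51.4-fold (adjusted p 3.55e-09), the stress peptide Adm at least 48.3-fold (adjusted p 1.73e-07), and Ephb4, a receptor of veins, by 3.01 (SE 0.42, adjusted p 1.57e-05; 3.59 without P14 replicate 3), all 3 with P14 replicate 3 lowest. Vegfa, the main vessel growth factor, varied: it read 11.69, 11.95 and 10.55 at P0 and 12.33, 11.21 and 13.77 at P14, with a difference of 1.04 (adjusted p 0.267), of 1.66 without P14 replicate 2 and 0.38 without replicate 3. In the TGF-beta and BMP pathway 10 of 22 genes rose and 6 fell (3 under cyclic loess). The endothelial receptors Acvrl1, at least 40.2-fold (adjusted p 6.78e-08), and Tgfbr2, by 7.18 (SE 0.37, adjusted p 3.71e-10; 4.06 as the mean of its probes), rose, and Smad1, which carries their signal, rose by 1.43 (SE 0.27, adjusted p 0.000275). Bmpr1a, a BMP receptor of the neural retina, fell by 2.12 (SE 0.43, adjusted p 0.000635).

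Blood and immune genes were also higher at P14. Of 21 microglial genes 18 rose, with a median of 3.08. Laptm5, a lysosomal protein of blood cells, read 7.55, 9.10 and 7.69 at P0 and 14.60, 14.55 and 15.28 at P14, a rise of 6.70 (SE 0.37, adjusted p 5.42e-10), of which 5.43 came by P7 (late minus early -4.17, SE 0.63, adjusted p 0.000731). C1qa, a complement gene, read 6.97, 7.55 and 7.24 and then 11.61, 11.33 and 13.40, a rise of 4.86 (SE 0.37, adjusted p 1.75e-08), or 4.21 without P14 replicate 3. In both replicate 3 was the highest array. Tmem119, specific to microglia among brain immune cells, rose by 2.50 (SE 0.27, adjusted p 9.08e-07; 3.08 under cyclic loess). Of 12 genes of other leukocytes 3 rose and 2 fell, and the T-cell gene Cd3e differed by 0.15 (adjusted p 0.657). The 3 that rose were Mrc1, Cd74 and H2-Aa. Among the ages of this sort their probes met the rule for keeping a probe at P14 alone, where they were high. The 2 that fell were H2-Ab1 (-0.62, adjusted p 0.0359) and Cd163 (-0.49, adjusted p 0.0371), both found on every array of either age. The ages overlapped for H2-Ab1, and Cd163 was saturated on 2 P0 arrays. Of 6 red cell genes 4 rose: Hbb-b2, an adult globin, was found on 2 P0 arrays and rose by 6.42 (SE 0.55, adjusted p 6.86e-08), and Alas2, which starts heme synthesis in red cells, at least 20.7-fold (adjusted p 5.59e-08). Klf1, their master factor, fell by 0.62 (SE 0.17, adjusted p 0.00598). It was found on only 2 P0 and 2 P14 arrays, near the lower end of the scale at both ages.

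Genes of antigen presentation and the interferon response rose in 18 of 23 cases, with a median of 2.56. H2-K1, a class I histocompatibility heavy chain, read 8.10, 8.35 and 8.08 at P0 and 10.92, 10.89 and 9.82 at P14, a rise of 2.37 (SE 0.24, adjusted p 5.71e-07), with 0.39 by P7 and 1.97 after. Bst2, which tethers viruses to the cell, rose by 4.73 (SE 0.40, adjusted p 6.97e-08), or 5.32 without P14 replicate 3. Like the endothelial list, and unlike the microglial one, this list was lowest of the P14 arrays on replicate 3, at 0.90 against 2.03 and 2.12. H2-K1 belongs to a family of near-identical genes whose probes could cross-react.

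Sterol synthesis and uptake fell in 13 of 20 genes and rose in 1, with a median of -1.46. Hmgcs1, at the head of the pathway, read 15.39, 15.79 and 15.26 at P0 and 13.42, 13.38 and 13.33 at P14, a change of -2.10 (SE 0.21, adjusted p 3.66e-07). Sqle, which makes the ring precursor, fell by 2.51 (SE 0.23, adjusted p 1.96e-07), and Msmo1, a later oxidase, by 1.82 (SE 0.21, adjusted p 1.82e-06). Msmo1 was lowest at P7, at -2.37 from P0, and had come up by 0.55 at P14 (late minus early 2.92, SE 0.36, adjusted p 0.000154). The 1 call against the list, Nsdhl at 1.31, rests on 1 of its probes, which ran from -1.70 to 1.31. Scd1, which puts a double bond into fatty acids, fell by 2.18 (SE 0.22, adjusted p 5.39e-07), also lowest at P7 (late minus early 3.3, SE 0.38, adjusted p 0.000114). CCAAT was found in 93.3% of the 15 sterol genes with a promoter in the table, against 43.0% of all genes. It is in capitals, read from the other strand as ATTGG, in the 170 bases before Hmgcs1 (chr13:119690181-119690350, plus strand).
Hmgcs1: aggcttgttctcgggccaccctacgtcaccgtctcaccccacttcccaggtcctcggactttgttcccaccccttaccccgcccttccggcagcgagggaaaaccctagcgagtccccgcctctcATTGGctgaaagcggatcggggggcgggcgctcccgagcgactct

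Sterol export went the other way: 10 of 13 genes of efflux and lipoproteins rose and 1 fell (6 rose under median scaling or with the authors' values). Abca1, the pump that loads sterol on apolipoproteins, was found on no P0 array and read 10.92, 10.37 and 10.46 at P14, a rise of at least 16.9-fold (adjusted p 8.47e-09). Nr1h3, the sterol sensor that turns such pumps on, rose by 1.60 (SE 0.27, adjusted p 9.74e-05). Apod, a lipid carrier, read 7.15, 7.12 and 7.46 and then 10.75, 10.88 and 9.38; it rose by 3.09 (SE 0.30, adjusted p 2.80e-07), after P7 (late minus early 2.86, SE 0.52, adjusted p 0.0024).

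Of the lists of energy metabolism, glycolysis held the most calls. Of 19 glycolytic genes 10 rose and 1 fell, with a median of 0.79, and 5 rose under median scaling. Aldoa, an aldolase, read 11.61, 11.92 and 11.37 at P0 and 14.29, 13.78 and 14.45 at P14, a rise of 2.54 (SE 0.24, adjusted p 1.86e-07), reached by P7 (late minus early -2.99, SE 0.41, adjusted p 0.000333). Hk2, the inducible hexokinase, fell by 0.97 (SE 0.26, adjusted p 0.00602), a call that was lost (-0.58) within the scan day that holds 4 of the 6 arrays. Late minus early was called, negative each time, for 11 of 19 genes, and for 6 without P7 replicate 1. Of 22 respiratory chain genes none rose and 1 fell (median -0.05), of 19 tricarboxylic acid cycle genes 3 fell (median 0.02), and of 23 ribosomal proteins 3 fell (median -0.07). These shares lie below those of all genes. Of 21 genes that build ribosomes 11 fell, with a median of -0.61, among them Gnl3, a nucleolar protein of stem cells, by 1.41 (SE 0.21, adjusted p 2.78e-05).

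Growth signals were measured in 3 pathways. Fgf15, which the newborn retina makes under Hedgehog and Notch control, read 14.17 to 14.37 at P0 and 7.95, 7.80 and 9.91 at P14, a change of -5.73 (SE 0.39, adjusted p 6.30e-09), or -6.40 without P14 replicate 3. Of 10 Hedgehog genes 4 fell and none rose, with a median of -0.47 (6 fell, and -1.06, without P14 replicate 3). Hhip, a target that traps the ligand, went from 10.67, 10.42 and 10.78 to 6.39, 6.48 and 6.76, a change of -4.08 (SE 0.24, adjusted p 1.45e-09), or -3.14 as the mean of its probes. Smo, the signal's transducer, fell by 1.68 (SE 0.27, adjusted p 7.47e-05) and the target Gli1 by 0.98 (SE 0.21, adjusted p 0.000815), while the receptor and target Ptch1 had a difference of -0.17 (adjusted p 0.709). The probe of Gli1 met the rule for keeping a probe, among the ages of this sort, at P0 alone, where it was highest. Of 19 FGF genes 7 fell and 3 rose; Etv5, a target of the pathway, fell by 2.54 (SE 0.33, adjusted p 8.53e-06), or -1.93 within the scan day of 4 arrays.

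Of 28 Wnt genes 6 rose and 9 fell, near the shares of all genes. The Frizzled receptors held calls in both directions. Fzd2, Fzd3 and Fzd5 changed by -2.94 (SE 0.22, adjusted p 1.38e-08), -1.80 (SE 0.26, adjusted p 2.63e-05) and -2.13 (SE 0.22, adjusted p 7.86e-07; -1.25 as the mean of its probes). Fzd6 rose by 4.92 (SE 0.31, adjusted p 2.62e-09), from 9.36, 9.31 and 9.30 to 14.79, 14.28 and 13.66. Fzd1 rose by 1.91 (SE 0.19, adjusted p 3.75e-07), and Fzd7, named after its values were seen to complete the family, fell by 1.62 (SE 0.30, adjusted p 0.000299). Fzd8 and Fzd10, near the lower end of the scale at both ages, had differences of -0.07 (adjusted p 0.754) and -0.10 (adjusted p 0.791). Tspan12, which helps Norrin signal in retinal vessels, rose by 3.13 (SE 0.35, adjusted p 1.79e-06), and Lef1, which carries Wnt signals in the nucleus, at least 3.27-fold (adjusted p 2.66e-05). Fzd4, the Norrin receptor, read 7.01 to 7.47 at P0 and 7.1 to 7.41 at P14 (difference -0.01, adjusted p 0.977), also near the lower end of the scale.

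Genes that mark developmental time moved in part. The RNA binding protein Igf2bp3, of fetal cells, fell by 3.32 (SE 0.32, adjusted p 2.77e-07), with 12.34, 12.40 and 11.84 at P0 and 8.01, 8.77 and 9.86 at P14. Its relative Igf2bp1 had a call the other way, 0.93 (SE 0.20, adjusted p 0.000869), but its 2 probes ran from -4.97 to 0.93. Foxp1, counted with these genes, rose by 1.32 (SE 0.25, adjusted p 0.000343). Hmga1, a chromatin protein of fetal and dividing cells, was saturated on each P0 array and fell at least 8.51-fold (adjusted p 8.69e-07). Nuclear factor genes of late progenitors were uneven: Nfic rose by 1.79 (SE 0.20, adjusted p 1.73e-06), Nfib by 1.16 (SE 0.30, adjusted p 0.00462; no call under median scaling at 0.97), and Nfia and Nfix had differences of 0.44 and -0.10 (adjusted p 0.245 and 0.87), Nfix of -0.83 with a call without P14 replicate 3. Imprinted growth genes were split, with 3 of 14 higher and 4 lower; Peg3 fell by 1.77 (SE 0.24, adjusted p 1.06e-05). Of 25 chromatin genes 12 fell and none rose. Dnmt1, which copies DNA methylation, fell by 1.98 (SE 0.17, adjusted p 1.01e-07) and its guide Uhrf1 by 2.31 (SE 0.28, adjusted p 3.38e-06), the latter by P7 (late minus early 2.49, SE 0.48, adjusted p 0.00388; no call under median scaling or with the compared groups alone).

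Genes of young neurons fell in 11 of 19 cases and rose in 2, with a median of -1.01. Tubb3, the neuronal tubulin, read 11.15, 11.13 and 10.84 at P0 and 7.26, 7.54 and 8.72 at P14, a change of -3.20 (SE 0.33, adjusted p 5.86e-07). Tubb2a, another tubulin, rose by 3.19 (SE 0.42, adjusted p 8.52e-06). Of 16 synaptic genes 6 rose over the span and 1 fell. Late minus early was negative and called for 10 (2 without P7 replicate 1, 5 without P7 replicate 2, 3 under median scaling). Stx3, the syntaxin of ribbon synapses, read 9.99, 9.98 and 10.14 at P0 and 13.30, 12.28 and 13.76 at P14, a rise of 3.08 (SE 0.47, adjusted p 4.29e-05; 1.82 as the mean of its probes), with 3.84 by P7 and -0.76 after (late minus early -4.61, SE 0.82, adjusted p 0.00206). Of 15 retinoid genes 5 fell and 2 rose; Aldh1a3, which makes retinoic acid, fell by 2.46 (SE 0.40, adjusted p 8.16e-05), and Stra6, a retinol importer, was found on 1 P0 array and rose by 2.09 (SE 0.31, adjusted p 3.23e-05).

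Some of the clearest changes lay outside all lists. Selenop, a selenium carrier secreted into blood, read 8.50, 8.90 and 8.66 at P0 and 13.91, 13.46 and 14.25 at P14; its rise of 5.18 (SE 0.18, adjusted p 1.05e-11) had the smallest SE for its size among genes that rose. Nuak2, a kinase of the AMPK family, fell by 4.25 (SE 0.30, adjusted p 7.45e-09), and Pou3f1, a POU domain factor, at least 13.6-fold (adjusted p 3.19e-10). Gcnt1, which branches O-linked sugar chains, had the largest positive late minus early difference among genes called in both tests, 5.78 (SE 0.39, adjusted p 4.04e-07). It read 13.80, 13.75 and 13.57 at P0, dropped by 3.35 to P7 and came back by 2.43, to 13.09, 12.93 and 12.33. Ppp2r2b, a neuronal subunit of a phosphatase, ran the opposite way: it changed by 4.95 to P7 and by -1.40 after (late minus early -6.35, SE 0.82, adjusted p 0.000221), for a rise of 3.56 (SE 0.47, adjusted p 9.66e-06), or 4.15 within the scan day of 4 arrays.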

How the data were processed

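The 21 arrays hold long oligonucleotides for mouse transcripts, hybridised with labelled RNA in 1 colour. Per the file headers, the deposited scanner files give the median intensity of each spot and of its local background, read with GenePix and not normalised. The deposited value table also holds intensity values made by the authors; set against the scanner files, these equal the spot median minus background, with a floor, times 1 factor for each array.

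Intensities were background-corrected (limma's normexp, offset 50), quantile-normalised and put on the log2 scale. A probe was kept where some group had it found on each of its arrays (25264 of 34312 transcript probes). Matching the accession of each spot to RefSeq transcripts gave 22933 probes 1 symbol, 0 probes several and 11379 none. Each gene took its brightest kept probe; 4003 of 12609 genes had several. A model with a mean for each of the 8 groups was fitted to all 21 arrays with limma (3.58.1, R 4.3.3), with 13 residual and 3.65 prior degrees of freedom and Benjamini-Hochberg adjustment. The number of arrays limits the precision. Tested on simulated data of 12609 genes with 200 changed, the comparison of P14 with P0 recovered 57% of 2-fold and 91% of 4-fold changes, with 3.9% of calls false. The simulation changed far fewer genes than were called here. It used independent normal noise without a floor, saturation or scan day, so these rates need not hold for the real arrays.

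Gene lists, named genes and tests were chosen with earlier results of these data known. Genes named are list members that follow a fixed rule on size, the genes with the largest or most certain differences outside the lists, and a few genes said to have been chosen after their values were seen. Alternatives were median scaling, cyclic loess, no background correction, the authors' values, no filter, the mean of probes, the compared groups alone, replicate number or scan day as a block and each array left out; the comparison within 1 scan day was chosen after seeing the data. Some named genes are not reported here.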

Additional observations from a re-analysis of the deposited data

How the results depend on the processing

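The count of 5581 called genes stayed between 4683 and 6119 under the alternatives run, with 4752 to 5847 when 1 array of either age was left out. Median scaling moved the median of all genes by -0.113 and cyclic loess by 0.123, so the share of calls that were higher was 41.1% and 58.6% in place of 46.8%. The 1359 genes whose late and early change differed were less stable: 809 under median scaling, 551 with the compared groups alone, 453 within scan day 2 and 404 to 2656 when 1 array was left out. Among 162 named genes under 16 alternatives, 2542 of 2592 comparisons kept direction and side of the threshold, 25 lost a call, 24 gained one and 1 reversed: Nsdhl was -0.29 as the mean of its probes. Same-numbered P0 and P14 arrays did not deviate together (correlations of 0.029, -0.462 and -0.155), so the numbers were not taken as pairs; with replicate number as a block 5522 genes were called, and 1361 for late against early. Arrays that shared a scan day gave higher correlations in part. P0 replicate 3 and P14 replicate 2 gave 0.398, and P0 replicate 2 gave 0.267 and 0.205 with P14 replicates 1 and 3. Between days, P0 replicates 2 and 3 gave -0.462, -0.264 and -0.155. P0 replicate 1 showed no such split, at 0.029, 0.039 and -0.049 with P14 replicates 1, 2 and 3. The main model holds no term for scan day, and adding it raised the total to 6119 genes. The causes were not tested. For 1190 genes a spot not found, or saturated, at 1 age limits the change to a bound.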

Other observations

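Genes of glutamate, GABA and ion transport rose in 8 of 14 cases and fell in 2. Slc12a5, the chloride pump of mature neurons, rose by 3.43, and Slc6a13, a GABA carrier, fell by 3.03 on the log2 scale. Of 20 immediate-early and stress genes 9 rose and 1 fell. Ier3, a gene of the early stress response, read 9.79, 10.01 and 9.62 at P0 and 14.41, 13.96 and 14.04 at P14, and rose by 4.33 (SE 0.32).

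Of 20 genes of tip growth and axon guidance 5 rose and 8 fell. Of 9 lens genes 4 rose, among them the crystallin Crybb3 by 2.59, and of 8 pigment cell genes 1 rose and 1 fell.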
